A study of Mus musculus with 21 samples.

Results

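The effect of the diet eaten at the time of tissue collection was taken from all 21 of 21 RNA-seq libraries of the ventral hypothalamus (VH). Members were chosen by diet: 11 libraries came from mice on a high-fat diet (HFD) when tissue was taken, and 10 from mice on regular chow (RC), with the diet before the switch kept in the model. All mice were male, of strain C57/BL6 (C57/B6J as acquired), 12 to 14 weeks old when acquired, with no altered allele and no drug. In RC NoDS (5 libraries) RC was never exchanged, and in HFD NoDS (5 libraries) HFD was never exchanged. In RC → HFD (6 libraries) the mice moved from RC to HFD, and in HFD → RC (5 libraries) from HFD to RC. Before collection at ZT 6, in the middle of the light phase, unfamiliar objects kept every mouse awake for 3 hours, so no group shows the undisturbed state. Each library joined punches of 2 mice in equal parts, so differences between those mice are not seen, and 3 libraries that missed quality standards were never sequenced. The authors also left out punches in which *agrp* and *pomc* were not well above *hcrt*, so levels of these genes had a part in which mice were kept. Eating HFD at present joins mice new to that diet with mice long on it, and eating RC joins mice never on HFD with mice taken off it. The deposited counts summed to between 16380781 and 16390598 reads per library (median 16386024), and 12768 of 21654 genes averaged at least 50 reads and were tested.

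The VH holds the arcuate nucleus, where neurons that make *npy* and *agrp* drive feeding and neurons that make *pomc* and *cartpt* restrain it. Leptin and insulin, which circulate in relation to fat stores and meals, act on both kinds of neuron, and leptin signals through the kinase *jak2* and the transcription factor *stat3*. *Trh* encodes thyrotropin-releasing hormone, which sets the thyroid axis and also lowers food intake when given into the brain. In tissue pieces, fewer cells of a type and less RNA per cell cannot be told apart.

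The question put to the data was which genes follow the diet eaten now, whatever was eaten before. The present diet changed 5 of 12768 genes (0.0392%) at an adjusted p under 0.15, and 4 of them also passed 0.05. Both neuropeptides that drive feeding in the arcuate nucleus, *npy* and *agrp*, fell under HFD. *Trh* and *cartpt*, peptides that restrain feeding, rose, as did *serpina3n*, a secreted protease inhibitor and a marker of reactive astrocytes. Over all genes tested, 633 (4.96%) had an unadjusted p under 0.05, where 638.4 would if no gene differed. Of the 633, 353 (2.76%) were higher under HFD and 280 (2.19%) lower. The median log2 fold change of all genes tested was -0.000876, with 6339 of 12768 above 0.

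*Npy* (ENSMUSG00000029819, chromosome 6 from 49772709 to 49779506, NCBIM37) encodes neuropeptide Y, which acts on receptors that restrain neurons of the satiety pathway. After RC, the 5 RC NoDS libraries held 5015, 4378, 4258, 5713 and 4745 reads, against a lowest of 1390, a median of 1937 and a highest of 2295 in RC → HFD. After HFD, the 5 HFD → RC libraries held 3058, 5214, 2669, 2832 and 4574 reads and the 5 HFD NoDS libraries 1639, 1551, 2103, 2638 and 2006. The highest of the 11 libraries on HFD (2638) lay just under the lowest of the 10 on RC (2669), so the present diets did not overlap whatever came before. No other gene tested was free of overlap over all 21 libraries. HFD → RC was itself uneven, with 3 libraries near 2669 to 3058 and 2 within the range of RC NoDS. With the earlier diet in the model, *npy* fell by 1.11 ± 0.12 (SE) on the log2 scale (95% interval -1.34 to -0.89), to 0.462 of its RC level, lower than the RC median in 11 of 11 libraries (edgeR adjusted p = 2e-06).

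*Agrp* (ENSMUSG00000005705, chromosome 8 from 108090600 to 108092198) encodes a peptide that blocks melanocortin receptors and so opposes the products of *pomc*. Its reads were 1289, 1139, 1212, 1442 and 1230 in RC NoDS, and ran from 426 to 629 with a median of 536 in RC → HFD. They were 998, 1276, 623, 544 and 1476 in HFD → RC and 426, 678, 574, 902 and 616 in HFD NoDS. After RC the present diets stood fully apart, whereas after HFD the HFD → RC libraries 15 (623) and 16 (544) lay within the range of HFD NoDS. Freedom from overlap after 1 earlier diet was not rare, with 149 genes (1.17%) after RC and 130 (1.02%) after HFD. The same libraries, 15 and 16, held the lowest and the next lowest *npy* count of the 10 on RC. *Agrp* fell by 0.95 ± 0.15 (SE) on the log2 scale (95% interval -1.23 to -0.66), and 11 of 11 libraries on HFD lay under the RC median (edgeR adjusted p = 0.00188).

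*Trh* (ENSMUSG00000005892, chromosome 6 from 92192055 to 92194644) was lowest where HFD had never been eaten. RC NoDS held 543, 632, 464, 683 and 668 reads, and RC → HFD from 999 to 2047 with a median of 1093.5. HFD → RC held 1462, 1591, 1138, 1291 and 1673 reads, and HFD NoDS 1741, 2613, 2258, 1863 and 1737. Within each earlier diet, every library on HFD exceeded every library on RC, but RC → HFD and HFD → RC overlapped each other. *Npy* and *trh* were the 2 genes of 12768 (0.0157%) without overlap in the same direction after both earlier diets. *Trh* rose by 0.82 ± 0.13 (SE) on the log2 scale with the present diet (95% interval 0.57 to 1.07; 11 of 11 libraries above the RC median; edgeR adjusted p = 0.00188). Its log2 fold change for the earlier diet was of like size, 0.96 ± 0.13 (edgeR adjusted p = 0.000313). With no term for the earlier diet, *trh* was no longer called (log2 fold change 0.69, edgeR adjusted p = 0.796, range over all settings 0.000148 to 0.796).

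*Cartpt* (ENSMUSG00000021647, chromosome 13 from 100668439 to 100670638) encodes the precursor of CART peptides, made in *pomc* neurons and also in the lateral hypothalamus. RC NoDS held 3110, 2266, 2490, 3477 and 3486 reads, and RC → HFD from 2943 to 4729 with a median of 4038.5. HFD → RC held 2752, 3409, 2351, 4147 and 3575 reads, and HFD NoDS 5221, 4823, 5332, 6161 and 5593. HFD NoDS stood above all other groups, and after RC 5 of the 6 libraries put on HFD exceeded all of RC NoDS. *Cartpt* rose by 0.58 ± 0.09 (SE) on the log2 scale (95% interval 0.39 to 0.76; 10 of 11 libraries above the RC median; edgeR adjusted p = 0.00373). Its log2 fold change for the earlier diet was 0.31 ± 0.09 (edgeR adjusted p = 0.449).

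*Serpina3n* (ENSMUSG00000021091, chromosome 12 from 105644939 to 105652539) held 2740, 2696, 3326, 3859 and 3206 reads in RC NoDS and from 3071 to 4824 with a median of 3950.5 in RC → HFD. HFD → RC held 2940, 4347, 2583, 4931 and 3790 reads, and HFD NoDS 5817, 4510, 6582, 7239 and 5701. The present diets overlapped after either earlier diet, with 4 of 6 and 4 of 5 libraries on HFD above all on RC. *Serpina3n* rose by 0.49 ± 0.10 (SE) on the log2 scale (95% interval 0.29 to 0.69; 10 of 11 libraries above the RC median; edgeR adjusted p = 0.122). The call was the least stable of the 5: it held with 7 of the 21 libraries left out in turn and in 5 of 14 other settings.

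**Figure D1:**
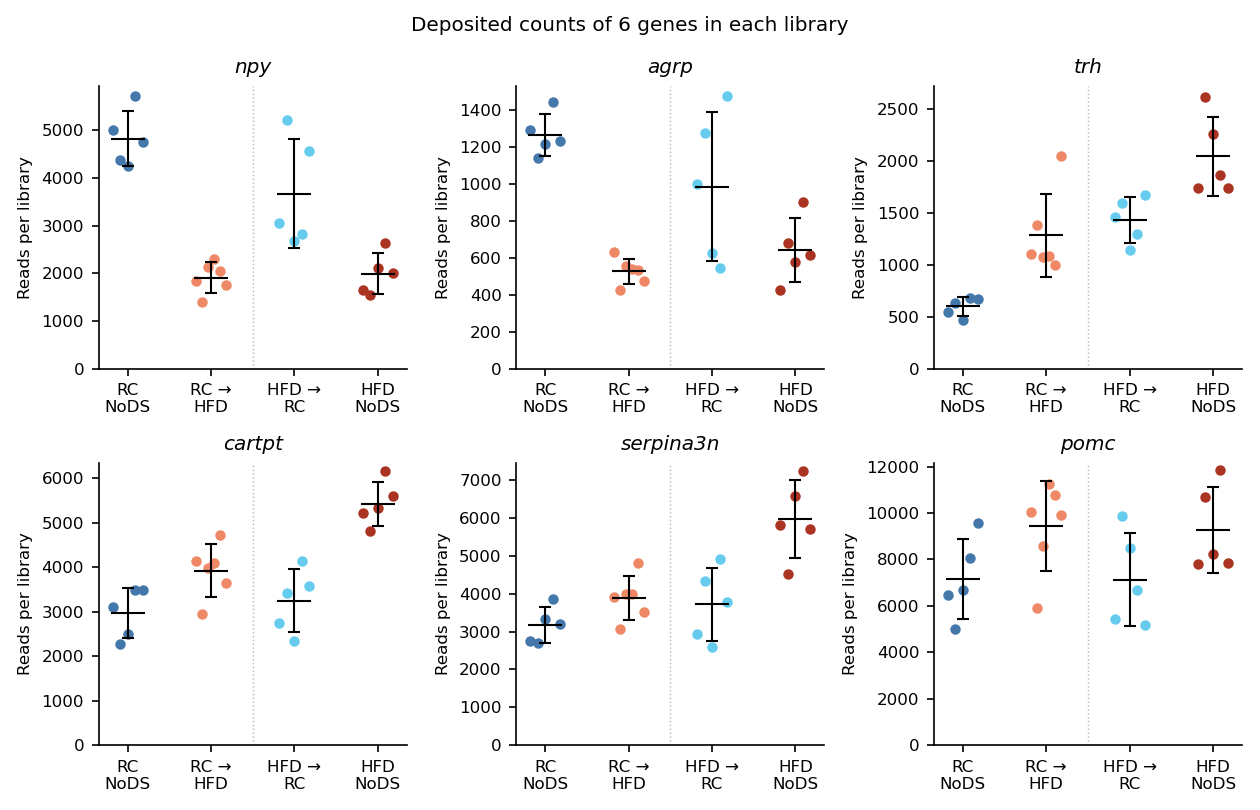
Deposited reads of 6 genes in each library (vertical axis, from 0) by group (horizontal axis), where points are libraries, bars the group mean ± SD, and a dotted line parts the groups by earlier diet. *Npy* runs from 1390 to 2638 reads in the 11 libraries on HFD and from 2669 to 5713 in the 10 on RC, while *pomc* overlaps.

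A test that shuffles the present diet within each earlier diet called fewer genes. Over all 116424 arrangements of the present diet within the earlier diets, an exact two-sided permutation test gave *npy* and *trh* p = 8.59e-06, the smallest it can give. After adjustment over all genes these 2 were called (permutation adjusted p = 0.0548 for both). *Cartpt* had an exact permutation p of 9.45e-05, *agrp* 0.000387 and *serpina3n* 0.000704, and none of the 3 was called this way.

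Whether a gene is tied more to the diet eaten now than to the diet eaten before needs the difference of both effects. That contrast was past the threshold for 1 gene, *npy* (0.00783% of 12768), whose log2 fold change was -1.11 for the present diet and -0.15 for the earlier one (difference -0.96 ± 0.16, edgeR adjusted p = 0.0312). *Agrp* had much the same pair of values, -0.95 and -0.02, and its difference was not called (edgeR adjusted p = 0.539), though it was without HFD → RC library 15 and without HFD → RC library 16. For *trh* the pair was 0.82 and 0.96, for *cartpt* 0.58 and 0.31, and for *serpina3n* 0.49 and 0.44. The earlier diet itself was past the threshold for 6 genes (0.047%), all higher after HFD, of which *trh* was the 1 shared with the present diet. The call of *npy* for this difference was lost without RC → HFD library 12, without HFD → RC library 14 and without HFD → RC library 17, and also with a robust dispersion and with blood genes as a covariate, chosen after seeing the data (0 genes called each time).

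The effect of the present diet can be read separately after each earlier diet, from groups that share no library. After RC, moving to HFD gave *npy* a log2 fold change of -1.31 ± 0.15 (SE), and after HFD, staying on it rather than leaving it gave -0.89 ± 0.16. The 2 values for *agrp* were -1.24 ± 0.19 and -0.63 ± 0.20, and for *trh* 1.13 ± 0.16 and 0.51 ± 0.16. Those of *cartpt* (0.43 ± 0.13 and 0.73 ± 0.13) and *serpina3n* (0.32 ± 0.14 and 0.68 ± 0.14) had the opposite order. The difference between the earlier diets was not called for any of the 5 (edgeR adjusted p = 0.364 for *trh* and 0.498 for *agrp*).

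The 5 genes were called on an average over both earlier diets, which favours genes of equal sign after each. Across all 12768 genes, which are not independent replicates, the log2 fold changes after RC and after HFD had a Pearson r of -0.219 and a Spearman rho of -0.0949, and 6040 (47.3%) had the same sign. Of 831 genes with an unadjusted p under 0.05 after RC, 295 (35.5%) had the same sign after HFD, and of 1013 such genes after HFD, 395 (39.0%) had the same sign after RC. Both conditions were met by 110 genes, of which 23 (20.9%) had the same sign. *Npy*, *agrp*, *trh*, *cartpt*, *serpina3n*, *pomc* and *socs3* were among those 23. At an unadjusted p under 0.001 the sets were small and the coefficients mixed in sign. After RC, 12 of 27 such genes (44.4%) had the same sign after HFD, with a Pearson r of 0.365 and a Spearman rho of 0.239. After HFD, 15 of 31 such genes (48.4%) had the same sign after RC, with a Pearson r of 0.105 but a Spearman rho of -0.155.

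The effect of the present diet differed with the earlier diet, past the threshold, for 4 genes (0.0313%): *slc12a7*, *col18a1*, *plcxd2* and *tppp*. *Col18a1*, a basement membrane collagen, averaged 418.8 ± 64.2 reads (SD, n = 5) in RC NoDS and 316.5 ± 40.1 (n = 6) in RC → HFD, but HFD → RC averaged 333.8 ± 84.2 (n = 5) against 544.4 ± 87.5 (n = 5) in HFD NoDS. Its log2 fold change was -0.38 after RC and 0.70 after HFD (difference 1.08 ± 0.22, edgeR adjusted p = 0.145). *Slc12a7*, a potassium chloride cotransporter, had the same pattern, -0.31 and 0.63. *Tppp*, a tubulin-binding protein of oligodendrocytes, had the mirror pattern, 0.30 and -0.22, as did *plcxd2*, 0.32 and -0.34. These calls were not stable: no gene was called with 13 of the 21 libraries left out in turn or with the Low Filter (genes averaging at least 5 reads), while DESeq2 called 116. Of 11 other settings, *slc12a7* and *col18a1* were called in 10 each, *tppp* in 8 and *plcxd2* in 7. None of the 4 passed 0.05, and 1129 genes had an unadjusted p under 0.05 for this difference.

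**Figure D2:**
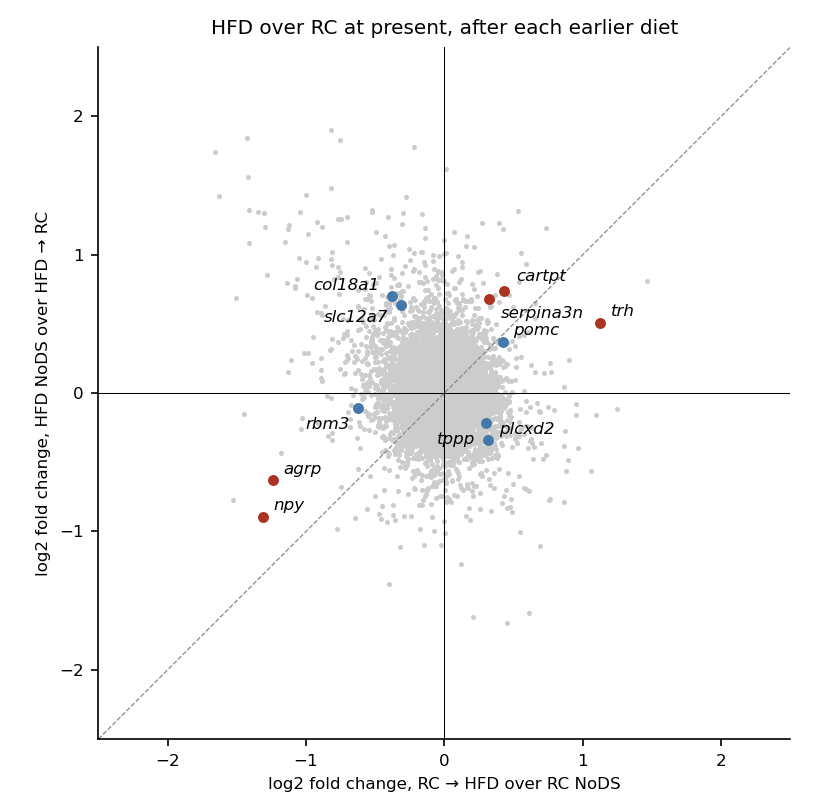
Log2 fold change of each tested gene for RC → HFD over RC NoDS (horizontal axis) and HFD NoDS over HFD → RC (vertical axis), with genes called for the present diet in red, other named genes in blue and 2 genes outside the axes. The 5 called genes lie in the quadrants of equal sign, while *col18a1* and *slc12a7* lie upper left and *tppp* and *plcxd2* lower right.

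Among 6 peptides that stimulate feeding, 5 could be tested and 2, *npy* and *agrp*, fell. The other 3 had positive fold changes that were not called: *hcrt* (orexin) 1.13 ± 0.37 (SE) on the log2 scale, *pmch* (melanin-concentrating hormone) 0.58 ± 0.28 and *gal* (galanin) 0.31 ± 0.11. *Hcrt* ran from 58 to 1051 reads in the 11 libraries on HFD and from 28 to 437 in the 10 on RC, so the ranges overlapped widely. *Gal* ran from 1240 to 2061 and from 818 to 1812, with 11 of 11 libraries on HFD above the RC median. Among 11 peptides that restrain feeding, 8 were tested, 6 were higher under HFD, and 2, *trh* and *cartpt*, rose. *Pomc*, the precursor of the melanocortins, held 6464, 5012, 6696, 8063 and 9562 reads in RC NoDS and from 5919 to 11263 with a median of 9989.5 in RC → HFD. It held 5417, 9866, 8488, 6700 and 5182 reads in HFD → RC and 7815, 10670, 8235, 11836 and 7847 in HFD NoDS. The groups overlapped after both earlier diets, 10 of 11 libraries on HFD lay above the RC median, and *pomc* was not called (log2 fold change 0.40 ± 0.12, edgeR adjusted p = 0.811).

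Other genes of the neurons that make *npy* and *agrp* were described by list. Of 11 listed genes of these neurons, *npy* and *agrp* included, 10 were lower under HFD and 2 were called, with a median log2 fold change of -0.13, against -0.000876 for all genes. The median was -0.42 after RC and 0.04 after HFD, a difference that was not tested for the list. Over the other settings the median ran from -0.21 to -0.06 with 8 to 10 genes lower. *Ghsr*, the ghrelin receptor, held 300, 336, 323, 527 and 341 reads in RC NoDS and from 139 to 272 with a median of 208.5 in RC → HFD. HFD → RC held 209, 190, 156, 219 and 374 reads and HFD NoDS 161, 173, 158, 217 and 232. RC NoDS stood above RC → HFD in full, whereas HFD → RC, with library 17 (374) apart, overlapped HFD NoDS. *Ghsr* was not called (log2 fold change -0.57 ± 0.15, 11 of 11 libraries under the RC median, edgeR adjusted p = 0.811). *Npy2r*, the autoreceptor of these neurons, had a log2 fold change of -0.24 ± 0.08 with 11 of 11 libraries under the RC median (edgeR adjusted p = 0.851).

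Of the 13 tested genes of leptin and JAK-STAT signalling, 8 were higher under HFD, 5 lower and none called. *Socs3*, which is induced by *stat3* and damps leptin receptor signalling, held 145, 183, 169, 192 and 241 reads in RC NoDS and from 192 to 382 with a median of 207.5 in RC → HFD. HFD → RC held 148, 222, 147, 231 and 217 reads and HFD NoDS 346, 260, 320, 381 and 280. After HFD the present diets did not overlap, and after RC they did. *Socs3* had a log2 fold change of 0.59 ± 0.14 with 11 of 11 libraries above the RC median, and was not called (edgeR adjusted p = 0.44). DESeq2 called it (adjusted p = 0.112), as did the fit with *hcrt* and *pmch* as a covariate (0.0274, range over all settings 0.0274 to 1.0). *Stat3* had 0.23 ± 0.06 (edgeR adjusted p = 0.537) and was called with that covariate (0.0143) and without RC NoDS library 5 (0.0923, range 0.0143 to 1.0). Its value was 0.09 ± 0.07 after RC, where 1 of 6 libraries on HFD exceeded all on RC. After HFD it was 0.37 ± 0.07, with 5 of 5, and the difference between the earlier diets was not called (edgeR adjusted p = 0.366). *Stat3* overlaps *stat5a* on the opposite strand, and since the use of strand in counting is not stated, reads of *stat5a* may be among its counts. *Jak2* had -0.20 ± 0.10 and *sh2b1*, an adaptor of it, 0.18 ± 0.07, neither called. The median of the list was 0.02 (0.04 after RC, 0.29 after HFD) and ran from -0.02 to 0.07 when single libraries were left out.

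Genes of reactive astrocytes had the most uniform direction among the lists of glial states. All 11 tested of 14 were higher under HFD, 1 of them called, at a median log2 fold change of 0.14. The median ran from 0.13 to 0.22 over the other settings (9 to 11 genes higher) and from 0.12 to 0.19 with single libraries left out (8 to 11 higher). After RC the median was 0.03 and after HFD 0.31, and for the earlier diet it was 0.25. *Gfap*, also on this list, had a log2 fold change of 0.07 ± 0.16 (-0.20 after RC, 0.37 after HFD). Of the 11 libraries on HFD, 5 lay above the RC median of *gfap*. *Sbno2*, a transcriptional regulator induced through *stat3*, had a log2 fold change of 0.41 ± 0.10 with 11 of 11 libraries above the RC median and was not called (edgeR adjusted p = 0.44). Its value was 0.22 ± 0.13 after RC, where 3 of 6 libraries on HFD exceeded all on RC. After HFD it was 0.61 ± 0.13, with 5 of 5, and the difference between the earlier diets was not called (edgeR adjusted p = 0.541). *Clu*, a secreted chaperone of astrocytes, had 0.14 ± 0.04. General astrocyte markers did not share this: 4 of 11 were higher, with a median of -0.03 (0.05 after RC, -0.15 after HFD). Of 15 microglial markers 8 were higher (median 0.02), and of 13 tested genes of NF-kB and toll-like receptor signalling 8 were higher (median 0.02, -0.06 after RC and 0.14 after HFD), with no member called in either list. With single libraries left out, the microglial median ran from -0.02 to 0.07 (6 to 12 higher). That of NF-kB and toll-like receptor signalling ran from -0.03 to 0.07 (6 to 10 higher). For the last list, 8 further genes, such as *tnf*, *il6* and *il1b*, averaged too few reads to be tested.

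No metabolic gene on the lists was called. Of 23 genes of glycolysis and lactate 19 were higher, their median log2 fold change was 0.06, and those with an unadjusted p under 0.05 were *eno2* (0.11 ± 0.05), *pfkl* (0.09 ± 0.04) and *gapdh* (0.08 ± 0.04). Of 23 genes of cholesterol synthesis 17 were lower (median -0.04, none called), among them *insig1*, which retains the sterol sensor in the endoplasmic reticulum, at -0.19 ± 0.07. *Scd2*, a fatty acid desaturase, had -0.11 ± 0.04. Among 25 genes of fatty acid oxidation 9 were higher (median -0.02), among 15 PPAR and ketone genes 5 (median -0.02), among 20 genes of AMPK and mTOR 10 (median -0.01) and among 19 of insulin signalling 9 (median -0.00015), with none called in these lists. *Irs1*, an insulin receptor substrate, had 0.32 ± 0.14. Of 76 nuclear subunits of oxidative phosphorylation 32 were higher (median -0.01, none called).

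Genes that respond to hormones and stress were given by list as well. Of 16 glucocorticoid-responsive genes 15 were lower under HFD, none called, with a median of -0.12 (-0.15 after RC, -0.03 after HFD) that ran from -0.20 to -0.05 over the other settings (11 to 15 lower). The 2 with an unadjusted p under 0.05 were the metallothioneins *mt2* (-0.26 ± 0.08, 11 of 11 libraries under the RC median) and *mt1* (-0.19 ± 0.08). *Rbm3*, an RNA-binding protein induced by cooling, had the smallest p among genes that were not called. It held 837, 982, 1053, 990 and 912 reads in RC NoDS and from 533 to 684 with a median of 596.5 in RC → HFD, but 911, 842, 948, 730 and 631 in HFD → RC and 726, 827, 776, 716 and 737 in HFD NoDS. The groups stood apart after RC and overlapped after HFD, and the log2 fold change was -0.38 ± 0.09 (edgeR adjusted p = 0.324). *Rbm3* overlaps *2900002K06Rik* on the opposite strand, so reads of that gene may be among its counts. Among 20 immediate early genes, 11 were higher, with *junb* at 0.25 ± 0.11 and *egr1* at -0.27 ± 0.09, and among 19 clock genes 12 were higher, with *bhlhe40* at 0.15 ± 0.05. Of 80 tested ribosomal protein genes 67 were lower (median -0.05, none called), with 51 to 72 lower over the other settings, but the median was -0.12 after RC and 0.02 after HFD.

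**Figure D3:**
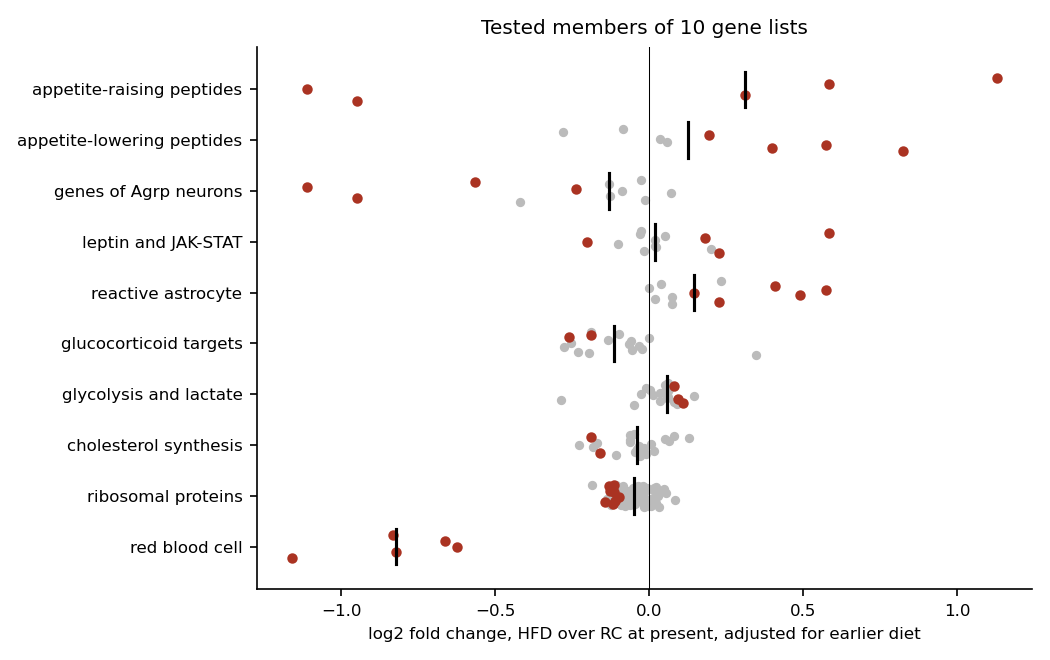
Log2 fold change, HFD over RC at present with the earlier diet in the model (horizontal axis), of the tested genes of 10 lists, in red at an unadjusted p under 0.05 and in grey otherwise, with a black line at each list's median. The medians run from -0.82 for red blood cell genes to 0.31 for peptides that stimulate feeding, and the 2 called genes of the latter list lie far to the left. The median of these 5 peptides ran from 0.25 to 0.37 with single libraries left out and from -0.12 to 0.34 over the other settings. Those settings include *hcrt* and *pmch*, both on the list, as a covariate.

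Of 5 red blood cell genes all had negative fold changes and none was called, with a median log2 fold change of -0.82 (-1.18 after RC, -0.26 after HFD), and the most abundant, *hbb-b1*, had -0.82 ± 0.24. Their summed reads were 3481, 4547, 4314, 3724 and 3348 in RC NoDS, from 1057 to 2122 with a median of 1867 in RC → HFD, 6760, 2361, 2664, 676 and 3537 in HFD → RC, and 1578, 4340, 1550, 3174 and 2052 in HFD NoDS. After RC the sums did not overlap, as for *npy* and *agrp*, after HFD they overlapped in full, and HFD → RC held both the highest and the lowest of all 21. With the level of these 5 genes as a covariate, chosen after seeing the data, *npy* (log2 fold change -1.04), *agrp* (-0.66), *trh* (0.80) and *cartpt* (0.52) were still called, and *serpina3n* (0.42) was not (edgeR adjusted p = 0.705, range over all settings 0.00175 to 0.796). The part of blood in the 5 results was not tested beyond this.

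Of 6 markers of the lateral hypothalamus, which borders the VH, 5 were tested and higher under HFD, with a median of 0.58 (0.43 after RC, 0.24 after HFD). *Cartpt*, which arcuate neurons also make, was the 1 called, and *hcrt* and *pmch* were not. Summed reads of the 6 were 9944, 10267, 9389, 9962 and 9585 in RC NoDS and from 10624 to 12688 with a median of 12064 in RC → HFD. They were 9100, 10258, 9658, 11538 and 9016 in HFD → RC and 11758, 12955, 12581, 13009 and 13625 in HFD NoDS. Without *cartpt* the sums of the other 5 overlapped between present diets, from 6099 to 8001 in RC NoDS and 6970 to 8554 in RC → HFD, and from 5441 to 7391 in HFD → RC and 6537 to 8132 in HFD NoDS. *Pdyn* was the most abundant of the 6, and none was at 0 in any library. With the level of *hcrt* and *pmch* as a covariate, *cartpt* kept its call (log2 fold change 0.71). Summed markers of the arcuate nucleus, *agrp* and *pomc* among them, overlapped between the present diets, from 10276 to 16930 in RC → HFD and from 11177 to 16349 in RC NoDS.

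The totals were made equal by re-sampling, but libraries differed in how many genes of low count were at 0. The share of 3116 genes averaging 5 to 50 reads that were at 0 ran from 1.12% to 7.22% (median 2.34%) across RC NoDS and from 2.31% to 22.4% (median 12.1%) across RC → HFD. It ran from 5.68% to 31.9% (median 15.1%) across HFD → RC and from 7.70% to 32.9% (median 14.6%) across HFD NoDS. RC NoDS had the lowest median share, though its range overlapped those of RC → HFD and HFD → RC, and what sets the share was not tested. Averaged over the earlier diets the share was 4.24 points higher under HFD (8.69 after RC, -0.213 after HFD, exact permutation p = 0.279). With that share as a covariate, *npy*, *agrp*, *trh* and *cartpt* kept their calls and *serpina3n* did not (log2 fold change 0.49, edgeR adjusted p = 0.212).

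Promoters are shown because these genes were called for the same contrast, the present diet, though not all in 1 direction. RefSeq's table (GRCm38.p6) held the 250 bases before the start for 4 of the 5 called genes, and for 8 of 10 genes looked up. *Agrp* had no entry. Each stretch was found letter for letter in NCBIM37 and is given 5′ to 3′ on the gene's strand with those positions. The letters TGACGTCA (the cyclic AMP response element) and TTCNNNGAA (the STAT core), searched on both strands, are in capitals. TGACGTCA stood in 508 (1.55%) and TTCNNNGAA in 2306 (7.02%) of 32851 promoters of this length. *Cartpt* (chr13:100670639-100670888, minus strand) held 1 TGACGTCA, its first base 112 bases before the start. *Npy* (chr6:49772459-49772708, plus), *trh* (chr6:92194645-92194894, minus) and *serpina3n* (chr12:105644668-105644917, plus) held neither. *Sbno2*, shown for its place in the *stat3* pathway though not called, had 3 starts, and the 1 farthest upstream (chr10:79565448-79565697, minus) held TTCGCAGAA, its first base 26 bases before the start. Of its other starts 1 held TTCCCGGAA and 1 neither motif. Among genes looked up but not called, *stat3* and *pomc* held neither. The stretch for *socs3* held TTCTTAGAA, but lies inside the annotated gene in NCBIM37 and overlaps an exon of it.
cartpt: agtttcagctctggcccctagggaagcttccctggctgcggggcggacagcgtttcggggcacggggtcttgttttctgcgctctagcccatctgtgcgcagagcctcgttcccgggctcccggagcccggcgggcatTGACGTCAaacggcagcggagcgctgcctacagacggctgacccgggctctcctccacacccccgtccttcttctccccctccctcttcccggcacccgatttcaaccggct
npy: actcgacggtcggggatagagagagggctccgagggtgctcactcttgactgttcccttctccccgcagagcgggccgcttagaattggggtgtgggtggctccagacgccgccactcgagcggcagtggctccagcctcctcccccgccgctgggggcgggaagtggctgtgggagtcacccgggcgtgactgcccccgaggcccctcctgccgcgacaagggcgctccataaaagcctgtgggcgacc
trh: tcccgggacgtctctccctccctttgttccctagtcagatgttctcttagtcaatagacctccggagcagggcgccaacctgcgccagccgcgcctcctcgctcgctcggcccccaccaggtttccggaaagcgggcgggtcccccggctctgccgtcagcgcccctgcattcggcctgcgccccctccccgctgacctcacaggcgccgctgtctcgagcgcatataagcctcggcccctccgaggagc
serpina3n: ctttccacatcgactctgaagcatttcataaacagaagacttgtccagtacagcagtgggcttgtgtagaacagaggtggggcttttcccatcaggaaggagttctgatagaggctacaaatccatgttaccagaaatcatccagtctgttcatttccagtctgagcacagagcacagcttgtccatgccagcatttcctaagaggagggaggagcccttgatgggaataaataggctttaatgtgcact
sbno2: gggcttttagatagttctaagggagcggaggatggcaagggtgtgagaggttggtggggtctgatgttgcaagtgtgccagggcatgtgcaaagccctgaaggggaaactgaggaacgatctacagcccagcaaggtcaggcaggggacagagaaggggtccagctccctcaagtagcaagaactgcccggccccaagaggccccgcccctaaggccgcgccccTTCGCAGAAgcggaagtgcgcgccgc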

How the data were processed

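RNA was read as polyA libraries (TruSeq Stranded mRNA, 100 bp single-end reads); whether strand was used in counting is not stated. Per the submitters' notes, reads were aligned to mm9 with STAR 2.5.1b and runs merged with Picard 2.7.1. The deposited values are counts, which the authors made with PORT by drawing the same number of reads from each library. They were used as deposited, for genes averaging at least 50 reads. Libraries were scaled by TMM and fitted with edgeR 4.0.16 (R 4.3.3, quasi-likelihood F-test) on diet before and after the switch. Benjamini-Hochberg adjustment ran over the whole set of tested genes (threshold 0.15). The fit was also run on simulated counts in which only the present diet changed genes. These held no effect of the earlier diet and no difference in blood or punch placement, so they cannot speak to those. The difference between earlier diets came from a fit with 1 mean per group. Alternatives used DESeq2 1.42.0, limma 3.58.1, other filters, scalings and covariates, and each library left out in turn. Permutation tests and figures used numpy 2.4.6, scipy 1.17.1, pandas 2.3.3 and matplotlib 3.10.9 under Python 3.11.15. Genes named are those called, the 25 with the smallest p, 8 that the study measured a second way, and from each gene list up to 3 with the smallest p and the 2 most abundant; not every gene that this rule takes is reported here. Members and lists were chosen with earlier results of these data known. No paired analysis was possible because each library holds mice of 1 group, and replicate numbers are not shared between groups.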

Additional observations from a re-analysis of the deposited data

Results flagged for a closer look

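In 9 of 232 groups of libraries looked at, 1 library stood far from the others, and chance sets apart about 1 in 20 such groups. RC → HFD library 12 held 2047 *trh* reads, against 999 to 1385 in the others of its group. *Ghsr* stood apart in RC NoDS library 5 (527 reads, others 300 to 341) and in HFD → RC library 17 (374, others 156 to 219). In RC NoDS, library 1 held 44 reads of *h2-q7* (others 61 to 63) and 662 of *dph3* (others 549 to 567), library 2 held 1614 of *mt2* (others 2288 to 2531), and library 5 held 2168 of *rpl35a* (others 2647 to 2786). In HFD → RC, library 13 held 995 reads of *phc1* (others 808 to 832) and library 14 held 17131 of *clu* (others 14929 to 15471). The causes were not tested.

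The effect of the present diet differed between the earlier diets, by the interaction term in edgeR, for 4 genes. On the log2 scale the difference (after HFD minus after RC) was 0.945 for *slc12a7*, 1.08 for *col18a1*, -0.659 for *plcxd2* and -0.512 for *tppp* (adjusted p = 0.145 for each). With single libraries left out, *slc12a7* and *plcxd2* kept the call in 7 of 21 fits and *col18a1* and *tppp* in 8 of 21.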

How the results depend on the processing

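*Npy*, *agrp* and *cartpt* were called for the present diet in all 14 other settings fitted per gene and with each of the 21 libraries left out, and *trh* in 13 of 14 and 21 of 21. Over these fits the highest adjusted p was 0.00133 for *npy*, but 0.141 for *agrp* and 0.141 for *cartpt*, just under the threshold. The number called was 3 with no term for the earlier diet and 2 with the exact permutation test for every gene, and ran from 4 to 9 with single libraries left out. It was 7 with DESeq2 (*rbm3*, *socs3* and *sbno2* in, *serpina3n* out) and 7 with lateral hypothalamus markers as a covariate (*stat3* and *socs3* added). It was 6 with 1 mean per group, averaged (*rbm3* added), and 6 with no filter (*1110050K14Rik* added). With blood genes as a covariate it was 5 (*march11* in, *serpina3n* out). Without HFD → RC library 16 it was 9, with *hbb-b1*, *rbm3*, *alas2* and *sbno2* added. *Rbm3* was also called without HFD → RC library 17 and HFD NoDS library 20, *hbb-b2* without the latter, and *stat3* and *sbno2* without RC NoDS library 5. Adjusted p of *serpina3n* ran from 0.00175 to 0.796. It was over 0.15 without any one of RC NoDS libraries 1 (0.309) and 2 (0.352), RC → HFD libraries 7 (0.172), 9 (0.211), 10 (0.205) and 11 (0.385), HFD → RC libraries 13 (0.339), 14 (0.161), 15 (0.206) and 17 (0.299), and HFD NoDS libraries 19 (0.265), 21 (0.320), 23 (0.339) and 24 (0.216). Of 2123 values of 61 named genes under alternatives, 2016 kept direction and side of the threshold, 87 lost it, 15 gained it and 5 turned. *Slc12a7*, *col18a1*, *plcxd2* and *tppp* were scored on the difference between earlier diets, the others on the present diet. Most of the 61 were not called in the main fit, many far over the threshold, so these counts say little about the called genes. With blood genes as a covariate (chosen after seeing the data) *hbb-b1* had 0.056, *hbb-b2* 0.034 and *hba-a1* 0.20, and with lateral hypothalamus markers as a covariate *hcrt* had -0.12 and *pmch* -0.0065, where each covariate was built from those genes.

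For the earlier diet the number called was 12 with DESeq2, 3 with limma-voom, 3 with limma-trend, 13 with no filter, and 2 with either the zero share or the ribosomal RNA share as a covariate. It ran from 2 to 34 with single libraries left out: 2 without RC NoDS library 1 or 2, 3 without 3, 2 without RC → HFD library 11 and 12 without 12, 2 without HFD → RC library 14 and 34 without 16, and 2, 11 and 27 without HFD NoDS libraries 20, 21 and 24. For the present minus the earlier diet it was 3 with DESeq2, 0 with a robust dispersion and 0 with blood genes as a covariate, and ran from 0 to 7 with single libraries left out (0 without RC → HFD library 12 or HFD → RC library 14 or 17, 3 without HFD → RC library 15, 7 without 16).

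For the difference between the earlier diets it was 116 with DESeq2, 15 with limma-voom, 2 with limma-trend, 0 with the Low Filter, 2 with library size only, 33 with the zero share, 91 with the ribosomal RNA share and 15 with blood genes as a covariate. It ran from 0 to 123 with single libraries left out. It was 0 without RC NoDS library 1, 5 or 6, RC → HFD library 7, 8, 10 or 12, HFD → RC library 13, 15 or 17, or HFD NoDS library 21, 23 or 24. It was 22 without RC NoDS library 3, 7 and 15 without RC → HFD libraries 9 and 11, 44 and 9 without HFD → RC libraries 14 and 16, and 103 and 123 without HFD NoDS libraries 19 and 20. The difference in zero share by present diet kept its sign with other ranges of counts, and was 2.16 to 6.16 points with single libraries left out. Where not given, the cause was not tested. Pooled mice, 5 or 6 libraries a group and unequal shares of low-count genes at 0 limit all of these values.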

Other observations

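Several lists with no gene called for the present diet had medians of opposite sign after the earlier diets, values for which no test of the list was made. For 17 genes of collagens and basement membrane the median log2 fold change of HFD over RC was -0.22 after RC and 0.52 after HFD (0.04 over both), and 13 of them were higher with the earlier diet in the model. For this list the median over both ran from 0.007 to 0.14 with single libraries left out (9 to 14 higher). Over the other settings it ran from 0.005 to 0.31 (9 to 15 higher). This list holds *col18a1*, which was called for the difference between the earlier diets. For 12 markers of tanycytes and ependyma, the cells that line the third ventricle, it was -0.39 and 0.27, with 4 of 12 higher. Markers of oligodendrocytes, the cells that make myelin, had the mirror order, 0.21 and -0.29, with 3 of 12 higher (1 to 11 of 12, and a median from -0.09 to 0.08, with single libraries left out, above 0 without HFD → RC library 13 or 14 or HFD NoDS library 19, 21 or 24), and their summed reads ran from 48756 to 145101 within HFD → RC alone. For 8 markers of the ventromedial nucleus the medians were 0.31 and -0.23. Of 13 neuronal markers 11 were higher (median 0.05, 0.13 after RC and -0.05 after HFD), with the transporter *slc32a1*, which loads GABA into vesicles, at 0.17 ± 0.06 (SE). Of 21 genes of the unfolded protein response 13 were higher (median 0.04), and of 13 genes induced by interferon 8 (median 0.03, -0.14 after RC and 0.22 after HFD).

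Among the other genes with the smallest p that were not called, *ache*, which breaks down acetylcholine, had a log2 fold change of 0.20 ± 0.05 and *dbn1*, an actin-binding protein of dendritic spines, 0.18 ± 0.05. *Cpe*, a carboxypeptidase that trims peptide precursors such as those of *pomc* and *npy*, had -0.11 ± 0.04, with 10 of 11 libraries on HFD under the RC median.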
